A study of Bos taurus with 20 samples.

Results

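The genes described here are 135 cytokines, chemokines and their receptors, of 11329 genes with a symbol on the array. They were taken by symbol: all names starting with CXCL, CXCR, TNFSF, TNFRSF or CSF, and CCL, CCR, IL or TLR followed by a number. Of 142 rows with such a symbol, 1 row per gene was kept, the one with the highest mean over the table. By role they are 9 CXC chemokines, 17 CC chemokines, 13 chemokine receptors, 34 interleukins with their soluble antagonists, and 31 interleukin receptor chains. The remainder are 9 ligands and 10 receptors of the TNF superfamily, 5 colony stimulating factors (CSFs) and their receptors, and 7 Toll-like receptors (TLRs). CXCL12 and CXCL9 are not among them and were not analysed here. A gene's symbol came from the array's annotation and was not checked against the probe's sequence.

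RNA came from LD muscle (longissimus dorsi, a back muscle running beside the spine) of 2 kinds of crossbred cattle, Piedmontese by Hereford and Wagyu by Hereford. Each cross was sampled at 60, 135, 195 and 280 days of gestation and at 3, 7, 12, 20, 25 and 30 months after birth. The deposited table has 20 columns, 1 for every combination of cross and age. A column covers 3 animals at fetal ages and 4 animals at postnatal ages, so a cross at a given age has no replicate. The 2 crosses therefore served as the 2 samples of an age, and errors measure how far the crosses depart from a common age profile. Both crosses have a Hereford parent. Piedmontese cattle are known for heavy muscling with an inactive form of myostatin, and Wagyu for fat within the muscle. The sex of the animals and any repeated sampling of an animal are not given in the labels. The 6 listed genes of the muscle fibre (ACTA1, CKM, DES, MYH1, MYH2 and MYH7) averaged 14.58 at 60 days and between 15.65 and 19.91 at the later ages.

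Chemokines are small secreted proteins that guide moving cells through receptors coupled to G proteins. Interleukins, CSFs and TNF superfamily ligands carry signals between blood, stromal and tissue cells, and Toll-like receptors sense microbial and damaged-cell products. In skeletal muscle they are best known from injury, when neutrophils and macrophages enter and regulate muscle precursor cells, and several are also made by the muscle fibres themselves. In whole muscle RNA, fewer cells of a type and less RNA per cell cannot be told apart.

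Values are given as deposited, in log2 units. How arrays were normalised and animals combined is not given in the sources used here, so differences are stated in log2 units of that scale and not as folds. Column medians lay between 6.79 and 7.36 at 60 to 195 days and between 5.88 and 6.38 from 280 days on, which shows that medians had not been equalised. Fetal samples shared 3 slides, samples of 3 to 20 months 4 slides and samples of 25 and 30 months 2 slides, with none in common. Age and slides therefore cannot be told apart across birth or from 20 to 25 months. Dyes were balanced after birth and unbalanced, in opposite ways for the 2 crosses, at each fetal age.

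As a group these genes gave dimmer rows than the array as a whole. The mean over the 20 columns had a median of 4.47 for the 135 genes, against 6.44 for all 21475 rows. There were 67 genes in the lowest 25% of all rows, below 4.44, and these are called dim here. TNF superfamily ligands had 6 of 9 genes below that value, interleukins 21 of 34 and CC chemokines 5 of 17. The brightest rows were IL1RL1, a receptor of IL33, at a mean of 18.43, and CCR10, a receptor for skin chemokines, at 17.13. Both stayed within a range of 1 log2 unit across ages (0.73 for IL1RL1 and 0.90 for CCR10). Row brightness also reflects the probe, so these levels do not rank transcripts.

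**Figure D1:**
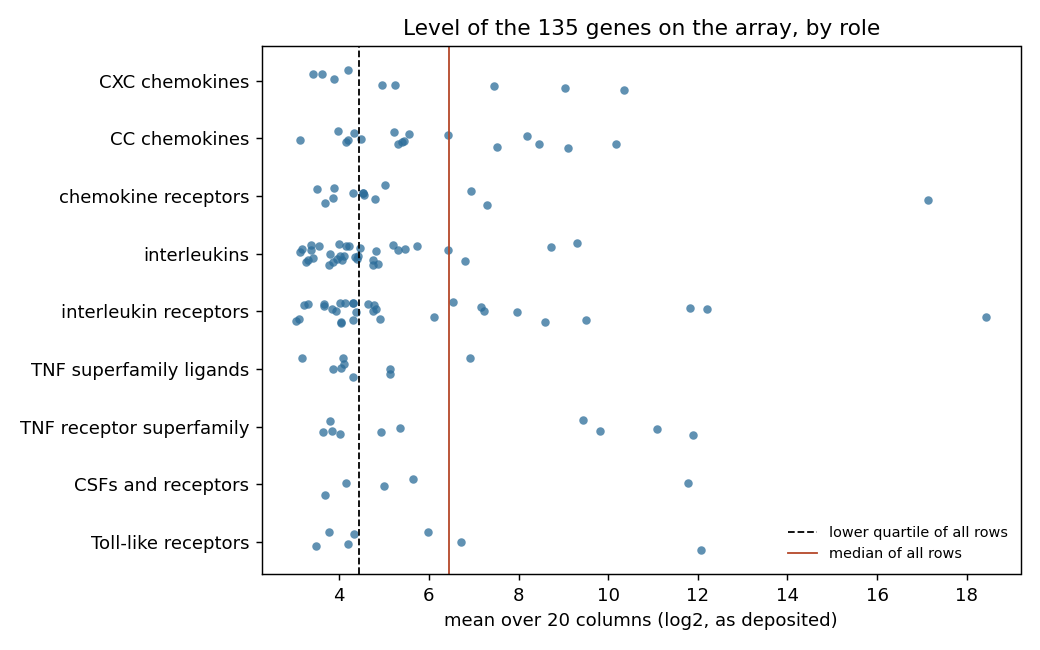
Mean over 20 columns (x axis, log2 as deposited) of each of the 135 genes, 1 point per gene, by role (y axis, with vertical scatter only to separate points). The dashed line is the lower quartile of all rows at 4.44 and the solid line their median at 6.44, and 67 points lie left of the dashed line.

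Most of these genes differed between ages, as most rows of the array did. Of the 135 genes, 112 differed between the 10 ages (limma F-test, Benjamini-Hochberg adjusted p under 0.05 over all rows), against 87.4% of all rows. Of the 67 dim genes 48 passed, against 4285 of all 5369 rows of the lowest 25%. Of the other 68 genes 64 passed, against 14492 of the other 16106 rows. The 23 genes that did not pass this F-test were mostly dim, 19 of them in the lowest 25% of rows. They included the T cell cytokines IL2, IL4 and IL5, the lymphoid survival factor IL7 with its receptor IL7R, IL15RA, TLR5, TLR9 and the bone-resorption ligand TNFSF11. The range of the 10 age means had a median of 1.52 for the 135 genes and 1.72 for all rows. It exceeded 2 log2 units in 55 genes and 4 in 14, similar shares to the 8898 and 2482 of all 21475 rows. Of the 68 genes outside the lowest 25% of rows, 13 had their highest age mean at 60 days and 15 at 135 days. The highest age mean was at 195 days in 9 genes, at 280 days in 9 and at 25 months in 9. The lowest age mean fell most often at 60 days, in 18 of the 68 genes, and at 280 days, in 15. These counts are on the deposited scale, whose column medians were higher at 60 to 195 days, and have no all-row counts beside them. They are therefore not read as particular to these genes.

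**Figure D2:**
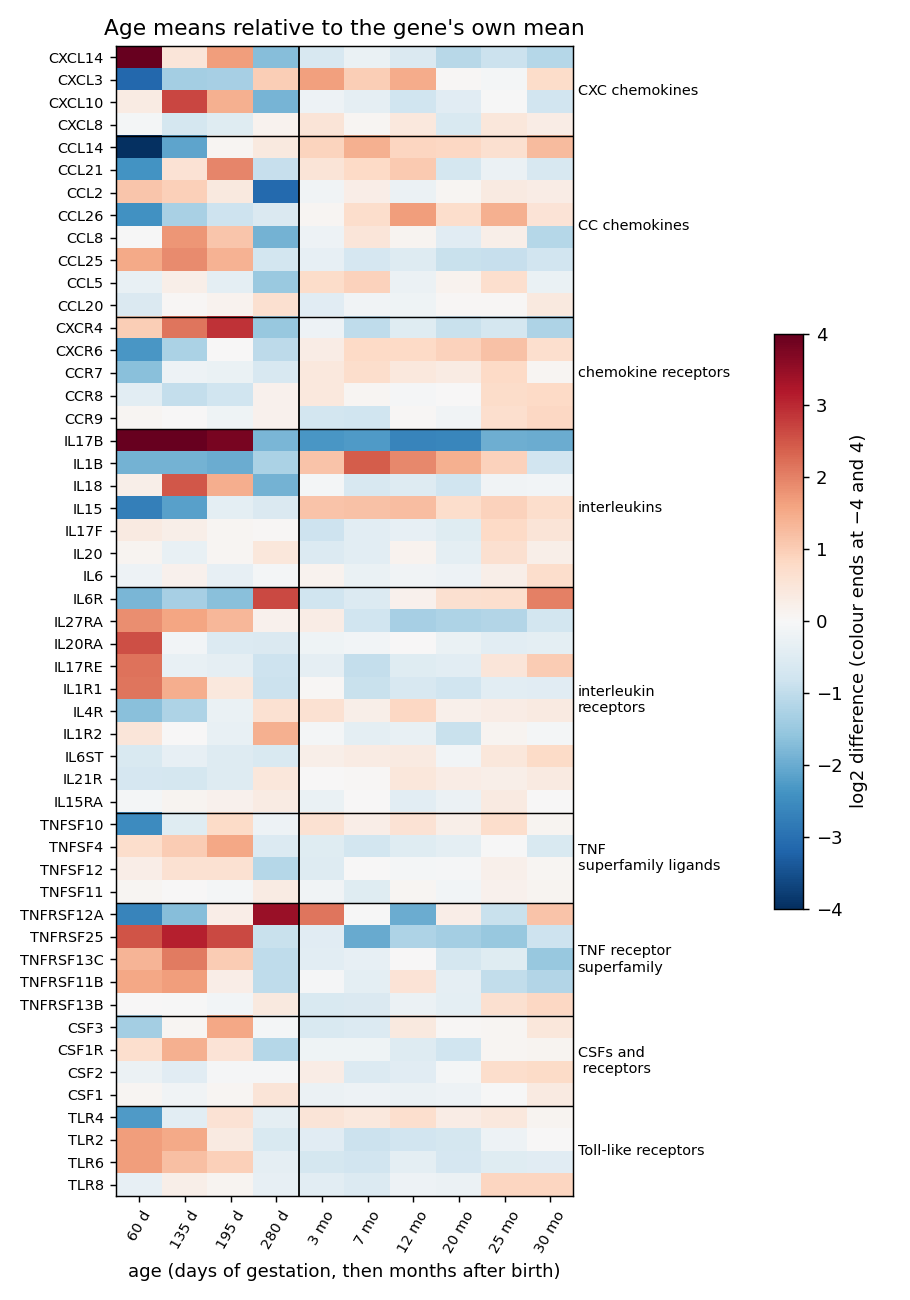
Mean of both crosses at each age (x axis) minus the gene's mean over the 10 ages, for 51 genes named by a fixed rule, grouped by role (y axis). Red is above and blue below the gene's own mean on the log2 scale, and the black vertical line marks birth. IL17B, TNFRSF25 and CXCR4 are red only at 60 to 195 days, and IL6R and TNFRSF12A are at their highest at 280 days.

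Across gestation some of the genes rose and others fell. At 280 days, compared with 60 days, 32 genes were higher and 38 lower, while 18.6% of all rows were higher and 42.4% lower. The median difference was 0.07 for the 135 genes and -0.34 for all rows. These splits depend on the scaling: after centring each column on its median they were 100 higher and 20 lower, and after quantile normalisation 49 higher and 28 lower. The median of all rows was then 0.89 with centring and 0.15 with quantile normalisation. The genes described below as higher or lower kept that direction under both scalings, except where stated.

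Between 195 and 280 days, the last fetal interval sampled, more genes fell than rose on the deposited scale. At 280 days 15 genes were higher and 37 lower than at 195 days (all rows, 14.2% and 33.6%). The split was 72 and 25 with centring and 34 and 36 with quantile normalisation, for which the median of all rows was 0.58 and 0.13 in place of -0.16. No CC chemokine passed as higher and 7 of 17 passed as lower, but with centring 5 were higher and 5 lower, and with quantile normalisation 3 and 7. Toll-like receptors had 0 higher and 4 of 7 lower, against 2 higher and 1 lower with centring and 0 and 2 with quantile normalisation. From 280 days to 3 months after birth 25 genes passed as higher and 17 as lower (all rows, 13.8% and 14.8%). Centring gave 25 and 32 and quantile normalisation 31 and 17. The CC chemokines had 9 higher and 1 lower of 17 in that comparison, 9 and 2 with centring and 10 and 2 with quantile normalisation. The fetal and birth comparisons share the 280-day columns, so a low or high value there enters them with opposite signs.

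IL17B changed most. This interleukin-17 family member signals through the receptor IL17RB. IL17B stood at 11.90, 12.21, 10.66 and 4.38 in Piedmontese crosses at 60, 135, 195 and 280 days, and at 12.68, 12.59, 9.80 and 4.83 in Wagyu crosses. All 12 postnatal columns lay between 3.74 and 4.77, at the level of dim rows. It was therefore a bright row in early and middle gestation and dim from 280 days on, with no overlap between the columns before 280 days and the later ones. It fell by 7.68 ± 0.31 (standard error) from 60 to 280 days (adjusted p = 1.76e-12), of which 5.63 ± 0.31 came after 195 days (adjusted p = 3.6e-10). Its receptor IL17RB, looked at for this reason after its values were seen, moved the other way over life, with a postnatal minus fetal difference of 1.07 ± 0.14 (adjusted p = 1.82e-06). IL17RB remained dim, between 2.74 and 5.13 in all 20 columns. The genes whose columns ran most like those of IL17B were TLR6 (Pearson r = 0.97 over 20 columns), CCL25 (0.96) and TNFRSF25 (0.96).

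**Figure D3:**
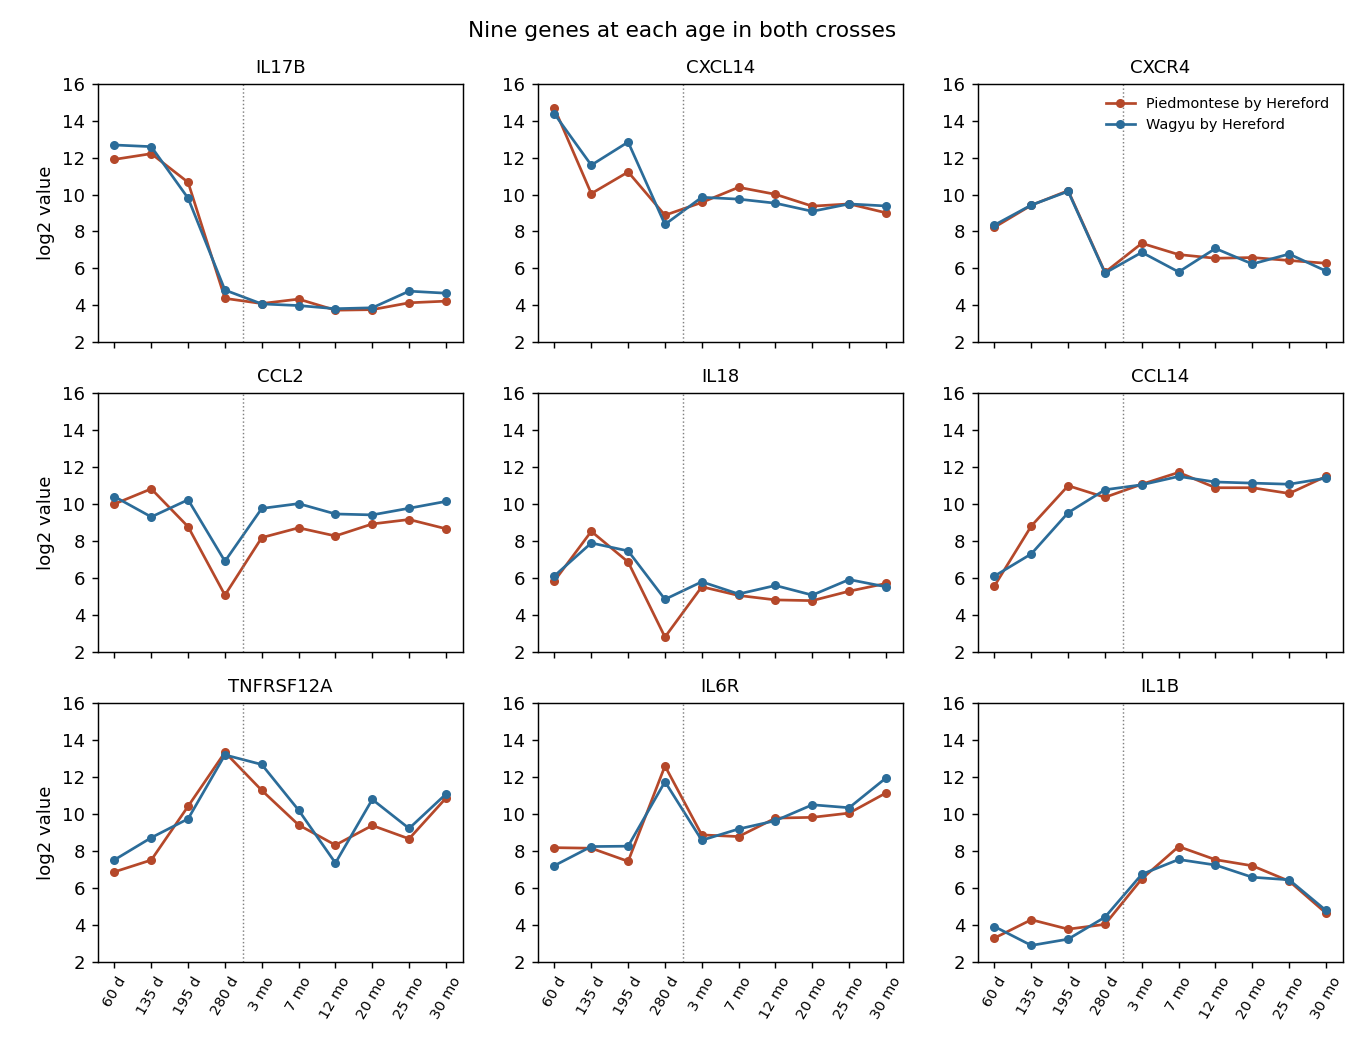
Value of 9 genes at each age (x axis) in Piedmontese by Hereford (red) and Wagyu by Hereford (blue) columns, in log2 as deposited (y axis). Points are single columns and the dotted line marks birth. The 2 crosses follow each other closely for IL17B and CXCR4, CCL2 and IL18 have their lowest value at 280 days, and TNFRSF12A its highest. IL6R is highest at 280 days in the Piedmontese by Hereford columns and at the last postnatal age in the Wagyu by Hereford columns.

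Among CXC chemokines, CXCL14 and CXCL3 moved in opposite directions before birth. CXCL14 is a chemokine of epithelia and stromal cells. It measured 14.66, 10.05, 11.22 and 8.88 in Piedmontese crosses and 14.36, 11.59, 12.84 and 8.38 in Wagyu crosses at the 4 fetal ages. The 60-day value was the highest in both crosses and the 280-day value the lowest of the 4, with a second high point at 195 days. The fall from 60 to 280 days was 5.88 ± 0.46 (adjusted p = 5.63e-09), and the later months stayed between 9.01 and 10.39. Markers of epithelium (KRT5, KRT15, KRT14 and EPCAM) were also highest at 60 days, averaging 5.57 at 280 days and 11.83 at 60 days, and their part in the CXCL14 value was not tested.

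CXCL3, a neutrophil attractant, rose before birth. It measured 6.16, 8.36, 7.33 and 10.31 in Piedmontese crosses and 5.59, 7.01, 8.11 and 9.76 in Wagyu crosses at the fetal ages, and 8.86 to 10.91 in the postnatal columns. It was 4.16 ± 0.42 higher at 280 than at 60 days (adjusted p = 1.31e-07), and its values at 280 days exceeded every earlier one. It then declined within one set of slides, by 1.59 ± 0.42 from 3 to 20 months (adjusted p = 0.0369). CXCL2 is the neighbouring gene and a close paralog in cattle, so the probe may read both. CXCL8, the best known neutrophil attractant of this family, was dim throughout, between 2.68 and 4.39. Of the 5 age comparisons it passed only postnatal minus fetal, at 0.48 ± 0.16 (adjusted p = 0.0129), and no longer without the 135-day (0.33) or the 195-day columns (0.40). The 5 neutrophil markers averaged 4.69, 6.72, 8.73 and 8.05 at the 4 fetal ages and between 5.25 and 6.54 after birth. They were thus highest at 195 days, before the highest fetal values of CXCL3. Of these markers, S100A8 had age means of 8.28 at 280 days and 3.46 at 60 days. Their part in the CXCL3 values was not tested.

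CXCL10, an interferon-induced attractant of T cells, peaked in mid-gestation. Its values were 7.43, 10.26, 8.91 and 5.48 in Piedmontese crosses and 8.13, 10.03, 8.88 and 5.70 in Wagyu crosses at the fetal ages. The 135-day columns were the highest and the 280-day columns the lowest of all 20. CXCL10 fell by 3.30 ± 0.33 between 195 and 280 days (adjusted p = 2.63e-07) and was 1.67 ± 0.33 higher at 3 months than at 280 days (adjusted p = 0.00143). CXCL11, the adjacent gene with the same receptor, fell by 1.53 ± 0.30 in the same fetal interval (adjusted p = 0.0004), a call lost with centring. Their receptor CXCR3 did not pass in any of the 5 age comparisons.

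Most CC chemokines named here fell into 3 patterns. The first is a rise through gestation that was then held. CCL14, a ligand of CCR1 in humans, measured 5.58, 8.82, 11.00 and 10.37 in Piedmontese crosses and 6.11, 7.31, 9.54 and 10.78 in Wagyu crosses before birth. From 195 days on no column was below 9.54, and the 60-day columns were the lowest of all. It was 4.73 ± 0.43 higher at 280 than at 60 days (adjusted p = 3.84e-08), with most of the gain by 195 days. CCL26 is an eotaxin that attracts eosinophils. Its postnatal columns ran from 5.22 to 7.42 and its fetal columns from 2.70 to 5.33, overlapping only at the Wagyu 280-day column. The postnatal minus fetal difference of CCL26 was 2.14 ± 0.17 (adjusted p = 3.04e-09).

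The second pattern, with a low point at 280 days, is described for CCL2, CCL8 and CCL5. CCL2, which draws monocytes through CCR2, measured 10.01, 10.83, 8.78 and 5.08 in Piedmontese crosses and 10.41, 9.31, 10.24 and 6.91 in Wagyu crosses before birth, and 8.19 and 9.77 in the 2 crosses at 3 months. Both 280-day columns were below every other column of CCL2. It fell by 3.51 ± 0.54 between 195 and 280 days (adjusted p = 3.28e-05) and was 2.98 ± 0.54 higher at 3 months than at 280 days (adjusted p = 0.000725). CCL8, a second monocyte attractant near CCL2 in the genome, fell by 2.99 ± 0.56 in the late fetal interval (adjusted p = 0.000234). At 3 months CCL8 was 1.70 ± 0.56 higher than at 280 days (adjusted p = 0.0308), a call lost with a trended prior. CCL5, an attractant of T cells and monocytes, stood at 7.21 and 7.06 at 3 months in the 2 crosses, against 4.99 and 4.88 at 280 days, a difference of 2.20 ± 0.32 (adjusted p = 0.000129). CCR2 itself was dim and passed in none of the 5 age comparisons.

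Macrophage and T cell markers had a matching low or rise. Of 8 macrophage markers 6 were measured (CD68, CD14, AIF1, LYZ, C1QA and C1QB). Their mean was 8.96 at 195 days, 7.34 at 280 days and 9.03 at 3 months, with 5 of 6 lower in the late fetal interval and 5 of 6 higher across birth. LYZ, lysozyme, had age means of 7.64 at 195 days, 5.09 at 280 days and 7.66 at 3 months. Of 5 T cell markers measured, 3 were higher at 3 months than at 280 days, among them CD3E with age means of 6.09 at 3 months and 3.68 at 280 days. The part of these cells in the chemokine values was not tested.

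The third pattern is a high in gestation before a fall by 280 days. CCL25, the ligand of CCR9, measured 8.96, 9.52, 8.89 and 6.22 in Piedmontese crosses and 9.15, 9.31, 8.92 and 7.33 in Wagyu crosses. It fell by 2.13 ± 0.26 after 195 days (adjusted p = 3.18e-06) and its postnatal columns lay between 6.48 and 7.31, all below its columns of 60 to 195 days. CCL21, which guides CCR7-bearing cells into lymphatic vessels, peaked at 195 days with 10.37 and 10.44 in the 2 crosses. It fell by 2.87 ± 0.33 by 280 days (adjusted p = 1.28e-06), was 1.43 ± 0.33 higher at 3 months (adjusted p = 0.00422) and fell again, by 1.20 ± 0.33 from 3 to 20 months (adjusted p = 0.0437). CCR7 had 2 rows that disagreed (r = -0.27 over 20 columns), so no direction is given for it. CCL20, the ligand of CCR6, followed none of these patterns and was dim in all columns, from 2.47 to 3.79 after birth and from 2.47 to 3.84 before it. It was 1.20 ± 0.28 higher at 280 than at 60 days (adjusted p = 0.00126) and fell by 1.09 ± 0.28 across birth (adjusted p = 0.00889). From 3 to 30 months it rose by 0.87 ± 0.28 (adjusted p = 0.0374), a call lost under both scalings.

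CXCR4, the receptor of CXCL12, had the largest late fetal fall among the 13 chemokine receptors. In mouse embryos it guides migrating muscle precursors as well as blood-forming cells. CXCR4 measured 8.23, 9.42, 10.21 and 5.79 in Piedmontese crosses and 8.35, 9.43, 10.17 and 5.75 in Wagyu crosses at the fetal ages. The 2 crosses differed by at most 0.13 at each of these ages, and the value climbed to 195 days before dropping below every earlier one. The late fetal fall was 4.42 ± 0.29 (adjusted p = 1.83e-09). At 3 months CXCR4 was 1.34 ± 0.29 higher than at 280 days (adjusted p = 0.00256), and its postnatal columns lay between 5.81 and 7.36. The member with the most similar columns was TNFSF4 (r = 0.94 over 20 columns).

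CXCR6, a receptor of tissue-resident T cells for CXCL16, was higher after birth than before it. Its postnatal columns ran from 4.46 to 5.74 and its fetal columns from 2.06 to 4.52. The postnatal minus fetal difference was 1.94 ± 0.16 (adjusted p = 4.95e-09). The course was not steady: CXCR6 fell by 1.06 ± 0.35 between 195 and 280 days (adjusted p = 0.0184, a call lost with centring) and was 1.33 ± 0.35 higher at 3 months (adjusted p = 0.00953). CCR8, a receptor of regulatory T cells, was dim and rose by 0.98 ± 0.28 between 195 and 280 days (adjusted p = 0.00723). Endothelial markers (PECAM1, VWF, KDR, TIE1 and TEK) averaged 9.41 at 280 days and 11.61 at 195 days, with 4 of 5 lower. Fibroblast markers (PDGFRA, COL1A1, DCN and LUM) averaged 12.15 at 280 days and 14.95 at 195 days, with 4 of 4 lower. These markers moved in the interval in which CXCR4 and CCL21 fell, and their part was not tested.

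**Figure D4:**
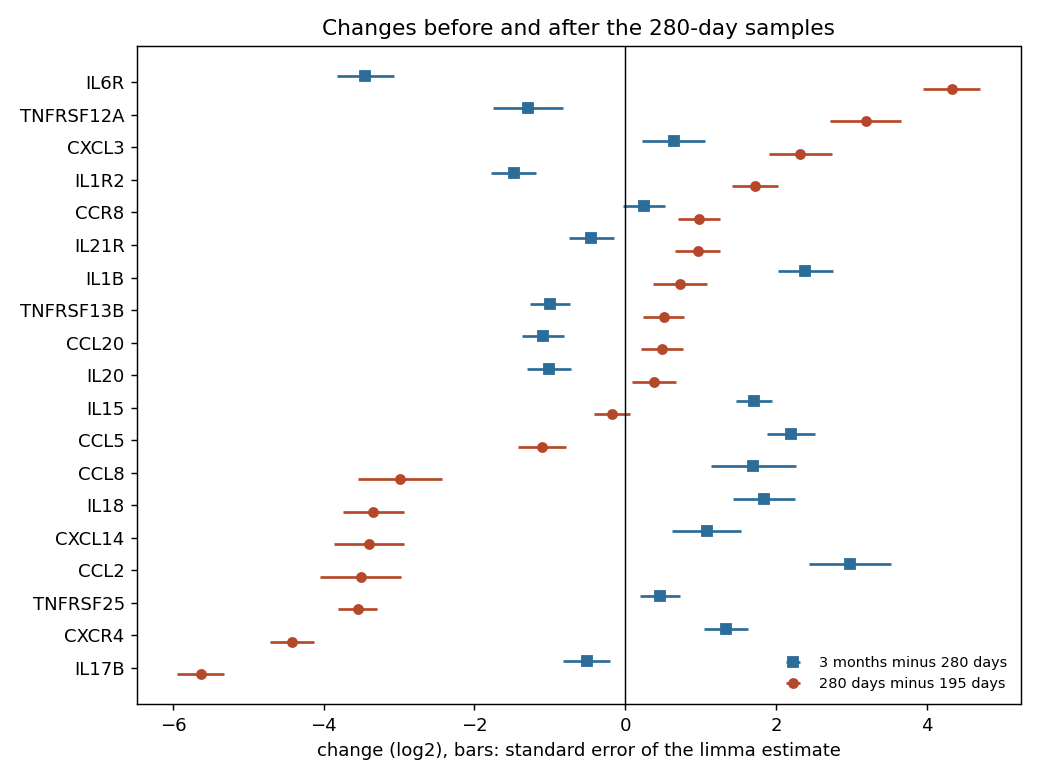
Difference in log2 (x axis) between 280 and 195 days of gestation (red circles) and between 3 months and 280 days (blue squares) for 19 genes (y axis), from limma over 20 columns, with bars of 1 standard error. Both differences use the 280-day columns. IL6R is 4.33 higher and then 3.45 lower, while CCL2 is 3.51 lower and then 2.98 higher.

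The interleukin-6 receptor chain changed in a manner its ligand did not. IL6R binds the cytokine and IL6ST (gp130) passes on the signal. IL6R measured 8.17, 8.14, 7.43 and 12.59 in Piedmontese crosses and 7.20, 8.23, 8.25 and 11.74 in Wagyu crosses before birth. After birth it measured 8.86, 8.77, 9.77, 9.81, 10.04 and 11.13 in Piedmontese crosses and 8.57, 9.18, 9.63, 10.49, 10.33 and 11.94 in Wagyu crosses at 3, 7, 12, 20, 25 and 30 months. It was high at 280 days in both crosses, dropped by 3 months, and climbed again to 30 months. The late fetal rise was 4.33 ± 0.38 (adjusted p = 5.44e-08), the fall across birth 3.45 ± 0.38 (adjusted p = 9.32e-06) and the rise from 3 to 30 months 2.82 ± 0.38 (adjusted p = 0.000187). From 3 to 20 months, on the same slides, IL6R rose by 1.43 ± 0.38 (adjusted p = 0.0368), and it was the only gene of the 135 to pass as higher there. IL6 itself was dim, between 3.34 and 5.02 in all columns, and passed in none of the 5 age comparisons. IL6ST had 2 rows with different courses (r = 0.17), and no direction is given for it.

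Components of the interleukin-1 system did not move together. IL1B, the inflammatory ligand, measured 3.28, 4.27, 3.76 and 4.02 in Piedmontese crosses and 3.90, 2.88, 3.22 and 4.41 in Wagyu crosses before birth. After birth IL1B measured 6.48, 8.23, 7.52, 7.19, 6.36 and 4.63 in Piedmontese crosses and 6.73, 7.53, 7.23, 6.57, 6.43 and 4.77 in Wagyu crosses. No fetal column reached the lowest postnatal one, and the highest values came at 7 months. IL1B was 2.39 ± 0.36 higher at 3 months than at 280 days (adjusted p = 0.000183), and it fell by 1.91 ± 0.36 from 3 to 30 months (adjusted p = 0.00228). The decline came late: the 20-month columns were 0.27 above the 3-month ones (standard error 0.36, adjusted p = 0.761).

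The receptors of IL1 diverged before birth. IL1R1, the signalling receptor, measured 8.62, 8.42, 6.68 and 5.57 in Piedmontese crosses and 8.71, 7.53, 7.21 and 5.79 in Wagyu crosses and fell by 2.99 ± 0.29 from 60 to 280 days (adjusted p = 9.84e-08). Its second row gave a difference of -0.95. IL1R2, a decoy that binds IL1 without signalling, was highest at 280 days, at 6.10 and 4.82 in the 2 crosses, against 3.75 and 3.73 at 195 days. It rose by 1.72 ± 0.30 (adjusted p = 0.000124) and fell by 1.48 ± 0.30 across birth (adjusted p = 0.00175). Unlike IL1R1, IL1R2 was thus high at the end of gestation in both crosses, more so in the Piedmontese column. IL1RN, the soluble antagonist, was 0.59 ± 0.16 higher after birth than before it (adjusted p = 0.00365), a call lost without the 195-day columns (0.35).

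IL18 was at its lowest at 280 days in each cross. It is a cytokine of the IL1 family that activates lymphocytes. IL18 measured 5.85, 8.53, 6.87 and 2.81 in Piedmontese crosses and 6.12, 7.90, 7.47 and 4.85 in Wagyu crosses before birth and 4.78 to 5.92 after it. It fell by 3.34 ± 0.41 from 195 to 280 days (adjusted p = 2.65e-06) and was 1.84 ± 0.41 higher at 3 months than at 280 days (adjusted p = 0.00333). Its secreted inhibitor IL18BP fell by 1.92 ± 0.25 in the late fetal interval (adjusted p = 4.92e-06), while the receptor chain IL18RAP rose by 0.90 ± 0.26 (adjusted p = 0.00837). Ligand and inhibitor thus fell together while a receptor chain rose, although IL18RAP was dim, at 4.79 or below in all columns.

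IL15, a cytokine that muscle fibres transcribe and that maintains natural killer and memory T cells, rose in steps. It measured 1.37, 1.37, 3.47 and 3.09 in Piedmontese crosses and 1.05, 2.22, 3.67 and 3.69 in Wagyu crosses before birth, and 4.56 to 5.35 after it. Every postnatal column was above every fetal column. IL15 was nevertheless a dim gene, and each of its 8 fetal values lay below the 10th percentile of its column (3.577 to 3.881). IL15 was 2.18 ± 0.24 higher at 280 than at 60 days (adjusted p = 4.67e-07) and 1.71 ± 0.24 higher again at 3 months (adjusted p = 9.56e-05). Its high-affinity receptor IL15RA stayed between 3.56 and 4.63 after birth and between 3.65 and 4.60 before it, and passed in none of the 5 comparisons. CXCR6 (r = 0.90), CCL14 (0.89) and CCL26 (0.89) had the columns most like IL15.

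Of the other interleukins, IL16 and IL33 fell after 195 days and rose across birth. IL16, a T cell attractant, fell by 2.04 ± 0.24 after 195 days (adjusted p = 2.03e-06) and was 1.54 ± 0.24 higher at 3 months (adjusted p = 0.000234). IL33, an alarmin, fell by 1.45 ± 0.34 (adjusted p = 0.00194) and was then 1.23 ± 0.34 higher (adjusted p = 0.0139). The lowest age mean of IL16 was at 280 days (7.95) and that of IL33 at 60 days (2.77). Both were named after their values were seen. By role, 3 interleukins passed as higher and 5 as lower of 34 in the late fetal interval (all rows, 14.2% and 33.6%). Across birth 6 passed in each direction (all rows, 13.8% and 14.8%). With centring these were 23 and 5, then 5 and 12, and with quantile normalisation 10 and 6, then 6 and 6. The 6 lower across birth were IL10, IL12A, IL17F, IL20, IL21 and IL36A, all dim except IL10 and IL36A. IL20, a skin cytokine, stood at 3.52 and 2.87 at 3 months in the 2 crosses, against 4.10 and 4.30 at 280 days.

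IL27RA, IL20RA and IL17RE had their highest age mean at 60 days and fell before birth. IL27RA, whose ligand IL27 steers T helper cells, measured 13.96, 14.00, 13.64 and 12.29 in Piedmontese crosses and 14.20, 13.55, 13.47 and 12.50 in Wagyu crosses before birth. It measured 12.56, 11.52, 10.65, 10.78, 10.76 and 11.38 in Piedmontese crosses and 12.46, 11.31, 11.11, 11.19, 11.31 and 11.55 in Wagyu crosses after it. The decline was gradual and went on after birth, with a fall of 1.53 ± 0.25 from 3 to 20 months (adjusted p = 0.00171). IL20RA, a receptor of the IL20 subfamily in skin, stood at 5.57 or below in every column after 60 days, against 7.76 and 6.94 at 60 days in the 2 crosses. IL17RE, the receptor for IL17C on epithelial cells, stood at 6.09 or below after 60 days, against 7.10 and 6.89 at 60 days. From 60 to 280 days IL20RA fell by 3.17 ± 0.43 (adjusted p = 4.41e-06) and IL17RE by 3.00 ± 0.26 (adjusted p = 2.37e-08). IL17RE was 1.40 ± 0.26 higher at 30 than at 3 months (adjusted p = 0.00201), ages that share no slide. From 3 to 20 months, on the same slides, IL17RE changed by -0.04 ± 0.26 (adjusted p = 0.956). The gain thus came after 20 months, a span that includes the change of slides, so it cannot be assigned to age. IL20RA and IL17RE thus had their highest values at the age at which the epithelial markers were highest, and the part of epithelium was not tested.

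IL4R, shared by the IL4 and IL13 receptors, rose instead. It measured 6.81, 7.68, 8.34 and 9.01 in Piedmontese crosses and 7.01, 7.02, 8.28 and 9.38 in Wagyu crosses before birth, a gain of 2.29 ± 0.25 by 280 days (adjusted p = 3.66e-07). Its second row gave a difference of 1.29. IL13RA1, its partner in binding IL13, fell by 2.15 ± 0.22 between 195 and 280 days (adjusted p = 3.46e-07), and its second row gave -1.11. IL10RB, a chain shared by the IL10 and IL22 receptors, fell by 1.78 ± 0.25 (adjusted p = 1.3e-05). IL4R and IL13RA1, which form a receptor for IL13, thus differed in course. IL21R, next to IL4R in the genome, rose by 0.96 ± 0.30 after 195 days (adjusted p = 0.014), a call lost in the fetal columns alone.

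TNFRSF12A (Fn14) had the largest prenatal gain. It is the receptor of TNFSF12 (TWEAK), and in mice it is induced in denervated or injured muscle. TNFRSF12A measured 6.86, 7.50, 10.41 and 13.33 in Piedmontese crosses and 7.51, 8.71, 9.73 and 13.19 in Wagyu crosses before birth. It measured 11.27, 9.40, 8.31, 9.37, 8.65 and 10.85 in Piedmontese crosses and 12.67, 10.20, 7.34, 10.78, 9.21 and 11.07 in Wagyu crosses after birth. It climbed at each fetal age, was highest at 280 days in both crosses, and fell to its lowest postnatal value at 12 months in both. The prenatal rise was 6.07 ± 0.47 (adjusted p = 4.74e-09) and the fall from 3 to 20 months 1.90 ± 0.47 (adjusted p = 0.0265). The fall across birth, 1.29 ± 0.47 (adjusted p = 0.049), was no longer called under either scaling or with a trended prior. TNFSF12 went the other way in late gestation: it stood at 5.28 and 6.26 at 280 days in the 2 crosses, against 7.37 and 7.67 at 195 days, a fall of 1.75 ± 0.27 (adjusted p = 3.09e-05).

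Most TNF receptors were lower after birth on the deposited scale. Of the 10 receptors, 7 were lower and 1 higher after birth than before it, in a comparison in which 32 of the 135 genes were higher and 48 lower and 22.2% and 51.3% of all rows were. With centring 93 of the 135 were higher and 22 lower, and with quantile normalisation 55 and 33, and of the 10 receptors centring put 5 in each direction and quantile normalisation 2 higher and 5 lower. TNFRSF25 (DR3), a death-domain receptor of lymphocytes, measured 12.19, 12.56, 12.42 and 8.34 in Piedmontese crosses and 11.74, 12.53, 11.73 and 8.71 in Wagyu crosses before birth. Its columns from 280 days on were all at 9.19 or below and those of 60 to 195 days all at 11.73 or above. It fell by 3.55 ± 0.26 after 195 days (adjusted p = 7.27e-09). TNFRSF13C, the receptor of B cell survival factor BAFF, was a dim gene. It stood at 2.79 and 2.89 at 280 days in the 2 crosses, against 4.83 and 4.86 at 195 days, and fell by 2.01 ± 0.28 (adjusted p = 1.4e-05). The 3 B cell markers measured averaged 7.20 at 280 days and 7.41 at 195 days, with 1 higher and 1 lower. The receptors TNFRSF21 and TNFRSF1A, both with death domains, fell by 1.55 ± 0.26 (adjusted p = 8.36e-05) and 1.64 ± 0.25 (adjusted p = 3.48e-05) in the same interval.

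The decoy receptor osteoprotegerin (TNFRSF11B) restrains the bone-resorption ligand TNFSF11 (RANKL). TNFRSF11B measured 7.33, 6.63, 5.97 and 4.00 in Piedmontese crosses and 6.46, 7.38, 5.28 and 4.65 in Wagyu crosses before birth and fell by 2.57 ± 0.35 from 60 to 280 days (adjusted p = 5.67e-06). Of the cartilage markers, COL2A1 and ACAN were measured, and they averaged 4.83 at 280 days and 14.28 at 60 days, and their part was not tested. TNFSF11 was dim at all ages and passed in none of the 5 comparisons. Among the ligands, TNFSF10 (TRAIL, a death ligand) was 2.33 ± 0.41 higher at 280 than at 60 days (adjusted p = 9.29e-05), its 60-day columns of 1.37 and 1.30 being the lowest of all. TNFSF10 was a dim gene. TNFSF4 (OX40 ligand, a T cell costimulator) peaked at 5.37 and 5.87 at 195 days and fell by 2.07 ± 0.24 by 280 days (adjusted p = 1.28e-06).

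The macrophage growth factor receptor CSF1R had a low at 280 days, as the macrophage markers did. It measured 12.35, 13.49, 11.94 and 10.34 in Piedmontese crosses and 12.53, 12.91, 12.67 and 10.94 in Wagyu crosses before birth, and 11.75 and 11.46 at 3 months. The 280-day columns were the lowest of all 20. It fell by 1.67 ± 0.27 after 195 days (adjusted p = 5.35e-05) and was 0.97 ± 0.27 higher at 3 months (adjusted p = 0.013). Its ligand CSF1 had its highest columns at 280 days, at 6.17 and 6.15 in the 2 crosses, and fell by 0.77 ± 0.23 across birth (adjusted p = 0.0193). CSF3, the granulocyte factor, peaked at 6.54 and 6.56 at 195 days and fell by 1.63 ± 0.28 by 280 days (adjusted p = 9.13e-05).

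From 60 to 280 days 1 of 7 Toll-like receptors, TLR4, passed as higher. The 3 that passed as lower were TLR2, TLR6 and TLR7 (all rows, 18.6% higher and 42.4% lower). With centring 4 were higher and 2 lower, and with quantile normalisation 2 and 3. The call of TLR7 (-1.01) was lost with centring at 0.22. TLR2 and TLR6, which together sense bacterial lipopeptides, were both highest early: TLR6 measured 13.71, 13.36, 13.22 and 11.45 in Piedmontese crosses and 13.80, 13.17, 12.82 and 12.00 in Wagyu crosses. TLR6 fell by 2.03 ± 0.23 from 60 to 280 days (adjusted p = 6.64e-07) and TLR2 by 2.28 ± 0.29 (adjusted p = 2.08e-06). TLR4, the endotoxin receptor, was lowest at 60 days, at 4.40 and 4.48 in the 2 crosses, and 1.89 ± 0.36 higher at 280 days (adjusted p = 0.000175). Within that span it fell by 0.96 ± 0.36 after 195 days (adjusted p = 0.0342), a call lost under both scalings. LY96, which binds endotoxin with TLR4, had age means of 7.26 at 280 days and 9.84 at 60 days (difference -2.58, adjusted p = 1.89e-08). The endotoxin carrier LBP ran the other way, with age means of 9.57 and 5.69 (difference 3.89, adjusted p = 1.16e-08). From 60 to 280 days TLR4 and LBP therefore rose while LY96 fell.

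After birth changes were fewer. At 30 months 17 genes were higher and 9 lower than at 3 months (all rows, 18.4% and 3.49%). With centring the counts were 13 and 13, and with quantile normalisation 7 and 23, for which the median of all rows was 0.18 and 0.0036 in place of 0.31. Of the 17 higher genes, 13 were in the lowest 25% of rows, among them TNFRSF13B, CCR9, IL17F and TLR8. Of the 3962 higher rows of the array, 1728 were in the lowest 25%. Thus 13 of the 67 dim genes passed as higher, against 1728 of all 5369 rows of the lowest 25%. TNFRSF13B (TACI, a B cell receptor) measured 3.51, 3.65, 3.86, 3.40, 4.55 and 4.83 in Piedmontese crosses and 3.35, 3.25, 3.74, 3.89, 4.81 and 4.88 in Wagyu crosses from 3 to 30 months. The 25- and 30-month columns stood above the others, and the 3- to 20-month columns lay between 3.25 and 3.89. Between 20 and 25 months, where the slides change, 66 of the 67 dim genes were higher and their median step was 0.60, against 0.62 for all rows of the lowest 25%. The median step of the dim genes was -0.06 from 3 to 20 months and -0.02 from 25 to 30 months.

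Within the slides of 3 to 20 months, IL6R was higher at 20 months and 9 genes were lower, against 0.913% and 3.96% of all rows. The 9 included IL27RA, TNFRSF12A, CXCL3, CCL21 and TNFRSF1A. Of the 9, 6 lay outside the lowest 25% of rows, as did 768 of the 850 lower rows of the array. IL2RA, the alpha chain of the IL2 receptor, fell by 0.79 ± 0.21 (adjusted p = 0.0411). Between 3 and 30 months CXCR4 fell by 1.04 ± 0.29 (adjusted p = 0.0173), and TNFRSF11B by 1.12 ± 0.35 (adjusted p = 0.0334). TNFRSF13C was also lower at 30 months (adjusted p = 0.0132). At 20 months the differences of CXCR4, TNFRSF11B and TNFRSF13C from 3 months were -0.70, -0.30 and -0.28 and did not pass.

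**Figure D5:**
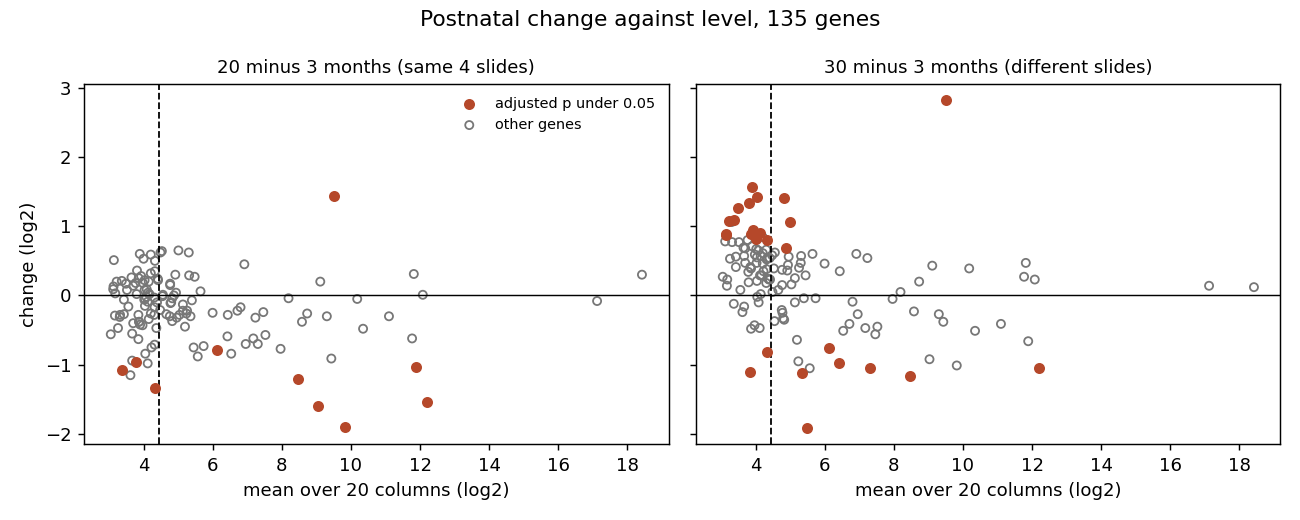
Difference in log2 (y axis) from 3 months to 20 months (left, same slides) and to 30 months (right, different slides) against the mean over 20 columns (x axis, log2), 1 point per gene. Filled points have an adjusted p under 0.05 and the dashed line is the lower quartile of all rows. On the left 1 gene is higher and 9 lower, and on the right 17 are higher, 13 of them left of the dashed line.

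No gene passed in the comparison of the crosses over all ages. For Piedmontese minus Wagyu crosses none of the 135 genes passed in limma with age as a factor, while 0.279% of all rows did. There were 8 genes with an unadjusted p under 0.05. The smallest adjusted p was 0.19, for CCL2, with a difference of -0.88 ± 0.24. CCL2 was lower in Piedmontese crosses at 9 of 10 ages. Its differences were -0.40, 1.52, -1.47 and -1.82 at the 4 fetal ages and -1.58, -1.31, -1.18, -0.49, -0.60 and -1.48 from 3 to 30 months. The exception was 135 days. Without the 135-day columns the difference was -1.15, and with postnatal columns alone -1.11, and in both cases it passed, but the same postnatal difference estimated within all 20 columns, -1.11 ± 0.30, did not (adjusted p = 0.189). IL13RA1 was lower in Piedmontese crosses at 10 of 10 ages, by a mean of 0.26 (estimate -0.26 ± 0.10, adjusted p = 0.442). Whether a cross difference itself changed between fetal and postnatal ages was tested on the 10 differences, and no gene passed (smallest adjusted p = 0.701, with 8 genes at an unadjusted p under 0.05), against 0.0186% of all rows.

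The signal relays behind these receptors were read from a separate list. Of 49 listed genes (JAK kinases, STAT factors, Toll-like receptor adaptors, NF-kB subunits and related ligands) 39 were measured. From 60 to 280 days 10 were higher and 13 lower (all rows, 18.6% and 42.4%), and in the late fetal interval 7 and 14 (14.2% and 33.6%). Across birth 6 were higher and 6 lower (13.8% and 14.8%), and from 3 to 30 months 11 and 1 (18.4% and 3.49%). STAT5B, which relays growth hormone and cytokine signals, had age means of 11.80 at 280 days and 8.31 at 60 days. The cytokine signalling inhibitor SOCS1 had 7.90 and 11.06 at these ages, and the NF-kB inhibitor NFKBIA 16.23 and 12.53. ACKR4, a scavenging receptor for CCL19, CCL21 and CCL25, had age means of 9.22 at 195 days, 3.73 at 280 days and 5.67 at 3 months. These ligands were also lower at 280 than at 195 days, CCL19 by an estimate of -1.87 ± 0.43 (adjusted p = 0.00155). STAT5B, LY96, ACKR4 and CCL19 were chosen after their values were seen.

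Some of the genes are neighbours in the genome. In the RefSeq gene table of assembly ARS-UCD2.0, used for gene order only, 52 of the 135 formed 21 runs of adjacent protein-coding genes, of which 3, chosen after their values were seen, are described. CCL14, CCL16 and CCL5 lie in a row and were all higher after birth than before it, by 2.48 ± 0.20, 1.44 ± 0.12 and 0.80 ± 0.15. They differed before birth: from 60 to 280 days CCL14 and CCL16 were called higher (4.73 and 1.49) and CCL5 lower (-1.19). In the run CCL8, CCL11 and CCL2 both monocyte attractants were lowest at 280 days. In the run of IL1R2, IL1R1, IL1RL2, IL1RL1, IL18R1 and IL18RAP, late fetal rises were 1.72 for IL1R2, 0.78 for IL18R1 and 0.90 for IL18RAP. IL1R1 was at -1.26 in the row kept here and at 0.02 in its second row, so no late fetal direction is given for it. The call of IL1R1 was lost under both scalings and that of IL18R1 with a trended prior or in fetal columns alone.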

How the data were processed

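Per the labels' protocols, total RNA labelled with Cy3 or Cy5 was hybridised to Agilent oligonucleotide arrays. The submitters' processing notes name version 8.5.1.1 of Agilent Feature Extraction. The series table deposited by the authors, in what was read as log2 values, holds 21475 rows and 20 columns with 0 missing cells, and the number of arrays (36 on 9 slides) limits the precision. Probe symbols came from the platform annotation (12276 rows with 1 symbol, 9199 with none). All 135 symbols matched a current gene table. Models were fitted to the whole table with limma 3.58.1 in R 4.3.3 (lmFit, eBayes), with age as a factor and cross, leaving 9 residual degrees of freedom, and Benjamini-Hochberg adjustment over all rows at 0.05. The cross by stage test used the 10 differences (8 degrees of freedom). Columns were treated as independent, and p-values cover only the spread between these columns. The fits were tested on simulated data. Python 3.11.15, pandas 2.3.3, numpy 2.4.6 and matplotlib 3.10.9 made the tables and figures.

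Members and lists were chosen with earlier results of these data known. Genes were named if among the 6 largest passing differences in each direction of a comparison with the same sign in both crosses, among the 3 largest ranges of a role group, or on a list of 24 symbols. Their receptors, ligands and neighbours were named after their values were seen. Alternatives were quantile normalisation, centring on the column median, leaving out the lowest 25% of rows, a trended robust prior, averaged rows, stage in place of age, no age block, fetal or postnatal columns alone, and leaving out each age. The difference of 20 minus 3 months was added after seeing the data.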

Additional observations from a re-analysis of the deposited data

How the results depend on the processing

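With the lowest 25% of rows left out, 68 of the 135 genes were tested and 64 differed between ages. The counts of genes higher were then 18 from 60 to 280 days, 8 from 195 to 280 days, 4 from 3 to 30 months and 20 after against before birth, and 7 were lower across birth. Quantile normalisation gave 49 higher from 60 to 280 days, 34 higher from 195 to 280 days, 7 higher and 23 lower from 3 to 30 months, and 55 higher after birth. Centring gave 100 higher and 20 lower from 60 to 280 days, 72 higher from 195 to 280 days, 32 lower across birth, and 93 higher and 22 lower after birth. Fetal columns alone gave 20 higher from 60 to 280 days and 9 from 195 to 280 days. Postnatal columns alone gave 37 higher and 14 lower from 3 to 30 months, and 20 against 3 months, added after seeing the data, gave 1 higher and 9 lower. For the crosses, postnatal columns alone gave 1 gene, CCL2, and leaving out 1 age at a time gave 0 to 1.

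Some differences turned sign. From 60 to 280 days, centring gave 0.04 for CCL5 (-1.19 as deposited), 0.60 for IL1RL1 (-0.63) and 0.52 for TNFRSF1A (-0.71, and 0.07 with quantile normalisation). For postnatal minus fetal ages, centring gave 0.06 for CCR10, 0.14 for CXCL11, 0.32 for IL17F, 0.33 for IL17RE, 0.31 for IL1RL1, 0.07 for IL20RA and 0.35 for TNFRSF11A, all passing as lower on the deposited scale. Quantile normalisation gave 0.22 for IL17RE, and without the 60-day columns IL17RE was at 0.37. Leaving out 1 age at a time gave -0.86 to 0.20 for IL20RA. From 3 to 20 months IL17RE was at -0.04 and IL1B at 0.27, against 1.40 and -1.91 from 3 to 30 months.

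All other counts stayed within 1.5 times their main value. The cause of these changes was not tested. There is no replicate of a cross at an age, and dyes are unbalanced before birth, so a cross difference at a single fetal age also holds a dye difference. The crosses were compared within ages, which pairs the columns by age, and without age in the model 0 genes passed as well. No pairing by replicate number could be made, since each cross and age has 1 column.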
